A study of Mus musculus with 18 samples.

Results

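The genes described here are 9 regulators and signalling genes that B cells use after commitment to their lineage: Spib, Pou2af1, Ikzf3, Bcl11a, Blk, Blnk, Btk, Cd22 and Ms4a1. They were taken by name, as a list with no threshold on their values, from 19505 genes measured on arrays. The list was chosen with earlier results of these data known. Shares of all genes set beside its counts are therefore descriptions, not independent support. Each of the 9 genes was read by 1 probe set. RNA came from preparations labelled as bone marrow mesenchymal cells (BM-MSCs, the stromal cells that support blood formation), with 1 mouse and 1 array per sample. The groups were 5 BALB/c control mice at 12 weeks of age, 5 NeuT mice at 12 weeks, 4 BALB/c mice at 24 weeks and 4 NeuT mice at 24 weeks. The labels place the NeuT mice at an early stage of breast tumour formation at 12 weeks and a late stage at 24 weeks. NeuT mice are known to carry an activated rat Erbb2 oncogene under a mammary tumour virus promoter. Every NeuT mouse is labelled as carrying tumours, and what the transgene does and what the tumours do cannot be told apart. Cells of all 4 groups came from femurs and tibias, and were passed over beads against CD45, Ter119, CD11b, CD11c, CD3, Gr1 and B220, the last an antigen of B-lineage cells.

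B cells form in the marrow from precursors that first switch on a lineage programme and then assemble an antigen receptor. The receptor signals through tyrosine kinases and adaptor proteins, and transcription factors and co-activators set how strongly the cell responds and whether it matures. Marrow holds precursor, immature and recirculating mature B cells, while stromal cells are not known for these genes. In RNA from such a mixture fewer B cells and less RNA per B cell cannot be told apart.

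The values are log2 signals after RMA, a method that corrects the background, equalises the distributions of the arrays and summarises the probes of a set. Array medians over all genes lay between 8.43 and 8.56, and correlations between arrays across genes ranged from 0.978 to 0.997. Signals of Itgb1 (the gene of CD29) and Cd44, both antigens by which the cells were labelled, were above the 95th percentile of 5222 negative control probe sets in 18 of 18 arrays. So were those of Ptprc, which encodes the depleted antigen CD45 and, as an isoform, B220. Of 12 early B-precursor genes 2 (Cd79a and Ebf1) were above that percentile in all 18 arrays, 7 in some and 3 (Rag2, Dntt and Vpreb2) in none. Of 15 stromal genes 1 (Igfbp4) was above it in all 18 arrays, 1 (Eng) in 2 arrays and 13, Cxcl12 and Pdgfrb among them, in none. Some B-lineage transcripts were thus at clear signal in preparations labelled as stromal and depleted of B220-bearing cells. Of the 9 genes, Blnk passed the same percentile in 15 arrays, Spib in 12, Btk in 5 and Pou2af1 in 3. The other 5, Blk, Ikzf3, Bcl11a, Cd22 and Ms4a1, passed it in none, so their differences, those of Blk and Ikzf3 included, are between dim signals. All 9 were above the median of the negative controls in all 18 arrays, with Ms4a1 closest to it.

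Mouse promoter sequences (RefSeq, GRCm38.p6) were matched for 6 of the 9 genes: Spib, Pou2af1, Bcl11a, Blnk, Btk and Cd22. The 250 bases before the transcription start were searched on both strands for the octamer ATGCAAAT, the site of the factors that Pou2af1 co-activates; for GAGGAAGT and the shorter AGGAAG, cores bound by ETS factors such as Spi-B, the first of which contains the second; for the EBF1 palindrome (TCCC, any 2 bases, GGGA); for an NF-kB form (GGGA, any 3 bases, TCC); and for the E-box CAGCTG. Blnk held 1 octamer and 1 AGGAAG, Cd22 held 1 EBF1 palindrome, and the other 4 windows held no match. Of 32851 promoter windows of this length 1.60% held the octamer, 29.5% AGGAAG, 2.44% GAGGAAGT, 0.779% the EBF1 palindrome, 3.86% the NF-kB form and 13.0% the E-box. The windows of 3 genes whose signals varied together are shown in the sense of the gene, with matches in capitals: Blnk at chr19:40994222-40994471 on the minus strand, Cd22 at chr7:30879029-30879278 on the minus strand, and Spib, the gene with the lowest NeuT values relative to control, at chr7:44532072-44532321 on the minus strand. A match is a stretch of letters, not a shown binding site.
Blnk: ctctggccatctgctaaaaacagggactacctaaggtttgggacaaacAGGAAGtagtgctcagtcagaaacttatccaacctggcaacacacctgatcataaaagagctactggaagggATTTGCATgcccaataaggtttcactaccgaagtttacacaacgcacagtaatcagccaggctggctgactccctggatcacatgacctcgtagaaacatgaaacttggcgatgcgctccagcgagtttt
Cd22: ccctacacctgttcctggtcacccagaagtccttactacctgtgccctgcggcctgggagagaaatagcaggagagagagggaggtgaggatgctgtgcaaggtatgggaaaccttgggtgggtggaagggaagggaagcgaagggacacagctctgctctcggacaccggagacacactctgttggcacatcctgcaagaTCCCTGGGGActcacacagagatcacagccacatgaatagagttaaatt
Spib: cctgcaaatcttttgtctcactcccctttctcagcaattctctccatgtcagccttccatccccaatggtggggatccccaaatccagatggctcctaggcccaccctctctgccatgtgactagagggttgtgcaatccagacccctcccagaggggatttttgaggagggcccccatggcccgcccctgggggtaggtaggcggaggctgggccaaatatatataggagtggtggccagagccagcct
The Blnk octamer lies on the opposite strand to the gene, as ATTTGCAT, with its first base at -130 from the start, and AGGAAG begins at -202. The Cd22 palindrome, TCCCTGGGGA, begins at -49.

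Each gene was compared between NeuT and BALB/c mice at each age with limma, which fits 1 mean per group to every gene and pools the spread over groups. A gene was called when its p, adjusted by Benjamini-Hochberg over all 19505 genes, was under 0.05. At 24 weeks 4 of the 9 genes fell in NeuT mice: the transcription factor gene Spib, the co-activator gene Pou2af1, the kinase gene Blk and the zinc-finger factor gene Ikzf3. None rose. Over all genes 1.40% were called at this age and 0.220% were called lower. At 12 weeks 0 of the 9 were called by limma, where 3.84% of all genes were. An unadjusted p under 0.05 was found for 5 of the 9 at 12 weeks and 7 at 24 weeks, against 21.0% and 13.2% of all genes. The median log2 difference of the 9 genes was -0.42 at 12 weeks and -0.84 at 24 weeks, against -0.025 and -0.00014 over all genes. The groups did not overlap for 5 of the 9 genes at 24 weeks and for 0 at 12 weeks, where 6.72% and 7.46% of all genes did not overlap.

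**Figure D1:**
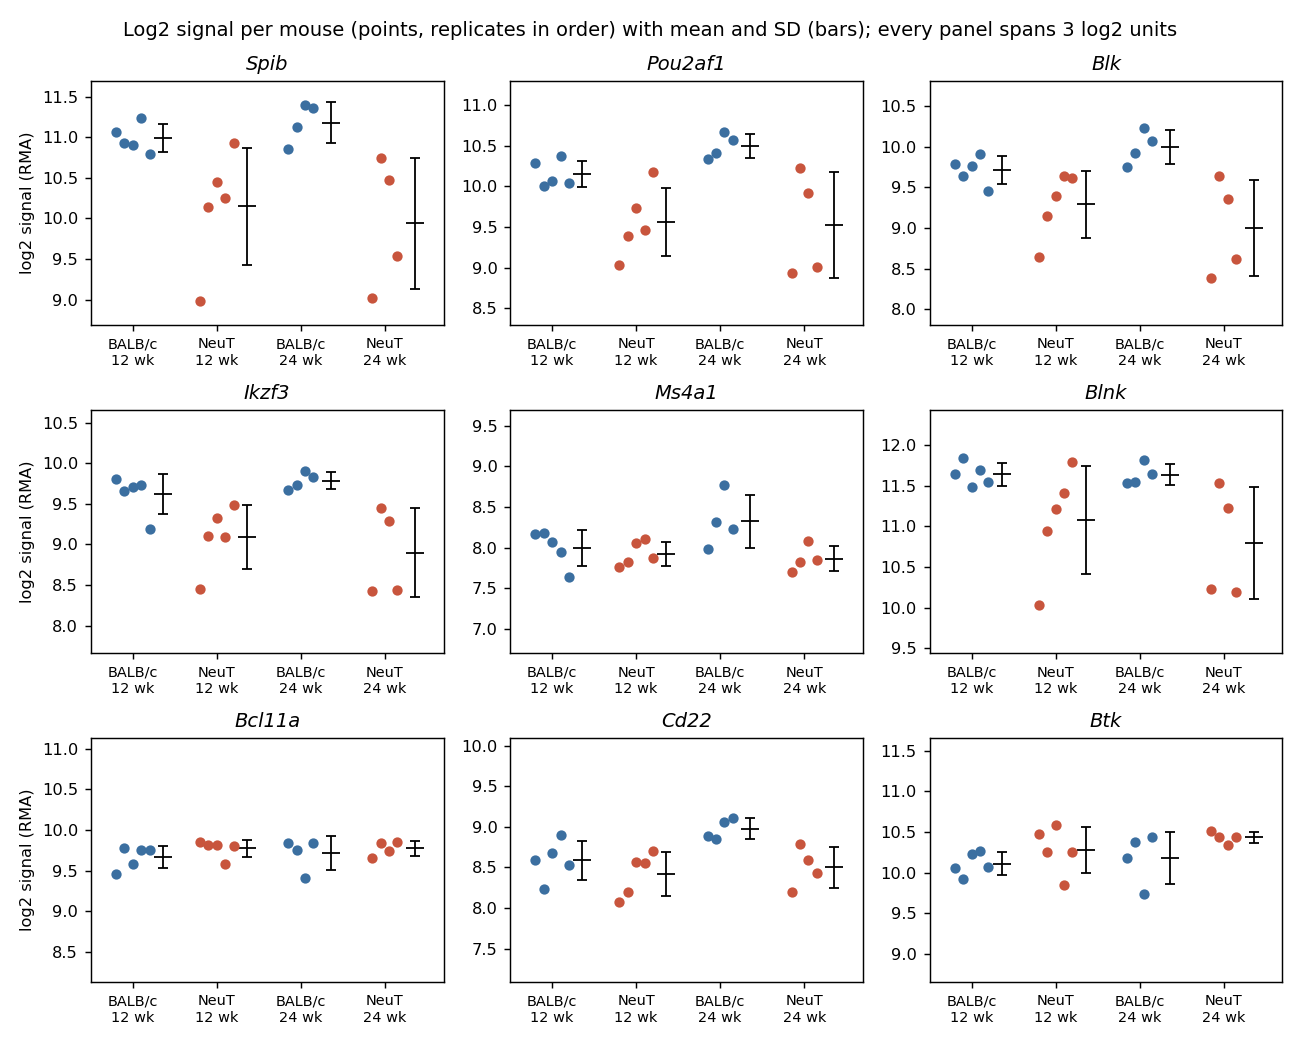
Log2 signal (vertical axis, 3 log2 units in every panel) of each gene in each mouse, by group; points are mice in replicate order, bars the mean and SD. For Spib, Pou2af1, Blk, Ikzf3 and Blnk the NeuT mice spread far below the controls, with NeuT 12-week replicate 1 and NeuT 24-week replicates 1 and 4 lowest, while Bcl11a stays between 9.41 and 9.85 in all groups.

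Among the nuclear regulators, Spib encodes Spi-B, an ETS-family transcription factor of B cells and plasmacytoid dendritic cells. At 24 weeks Spib read 10.85, 11.12, 11.40 and 11.35 in BALB/c replicates 1 to 4 and 9.02, 10.75, 10.47 and 9.54 in NeuT replicates 1 to 4. The groups were separated by a narrow gap between the lowest control and NeuT replicate 2. The log2 difference was -1.24 ± 0.31 (SE), a 2.36-fold lower signal (limma adjusted p = 0.0492, n = 4 and 4), and Spib ranked 3 from the lowest difference among 19505 genes. At 12 weeks Spib read 11.06, 10.93, 10.90, 11.24 and 10.79 in BALB/c mice and 8.98, 10.14, 10.44, 10.26 and 10.93 in NeuT mice. NeuT replicate 5 lay within the controls and the other 4 below them all. The difference of -0.83 ± 0.28 did not pass (limma adjusted p = 0.0910, n = 5 and 5).

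Pou2af1 encodes OBF-1, the co-activator that B cells join to octamer-binding factors. Its 24-week signals were 10.34, 10.41, 10.66 and 10.57 in BALB/c and 8.93, 10.23, 9.92 and 9.01 in NeuT replicates 1 to 4. All 4 NeuT mice were below the lowest control, replicates 1 and 4 by more than 1 log2 unit. Pou2af1 fell by 0.97 on the log2 scale (SE 0.23, limma adjusted p = 0.0358). At 12 weeks its signals ranged from 10.01 to 10.37 in BALB/c and from 9.04 to 10.17 in NeuT mice, and the difference was -0.59 (limma adjusted p = 0.0942). Here again NeuT replicate 5 overlapped the controls.

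Ikzf3 encodes Aiolos, an Ikaros-family zinc-finger factor of maturing B cells. At 24 weeks it read 9.67, 9.73, 9.90 and 9.83 in BALB/c and 8.42, 9.45, 9.28 and 8.43 in NeuT replicates 1 to 4. The controls lay close together (SD 0.10), and every NeuT mouse lay below them. Ikzf3 fell by 0.89 (SE 0.21, limma adjusted p = 0.0361). At 12 weeks the NeuT values of 8.45, 9.10, 9.32, 9.09 and 9.48 were compared with 9.81, 9.66, 9.70, 9.74 and 9.20 in BALB/c mice. Control replicate 5 lay among the NeuT mice, and the difference of -0.53 did not pass (limma adjusted p = 0.101).

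Bcl11a encodes a zinc-finger repressor needed early in the B lineage and also used by plasmacytoid dendritic and stem cells. Its signals ran from 9.46 to 9.78 in BALB/c and 9.59 to 9.85 in NeuT mice at 12 weeks, and from 9.41 to 9.85 and 9.66 to 9.85 at 24 weeks. The groups overlapped at both ages. The log2 difference was 0.11 at 12 weeks (95% confidence interval -0.072 to 0.29) and 0.06 at 24 weeks (-0.14 to 0.26), with limma adjusted p = 0.498 and 0.837. The lower bounds lie above the Spib values of the same age, -0.83 at 12 weeks (95% confidence interval -1.42 to -0.25) and -1.24 at 24 weeks (-1.89 to -0.59). The 2 genes were not tested against each other.

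Of the signalling genes, Blk encodes a Src-family kinase that acts at the B-cell receptor. Its 24-week signals were 9.76, 9.92, 10.23 and 10.07 in BALB/c and 8.39, 9.64, 9.35 and 8.62 in NeuT replicates 1 to 4. No NeuT mouse reached the lowest control. Blk fell by 0.997 on the log2 scale, a 1.996-fold lower signal (SE 0.22, limma adjusted p = 0.0282), the smallest adjusted p among the 9 genes. At 12 weeks the ranges of 9.46 to 9.91 in BALB/c and 8.64 to 9.65 in NeuT mice overlapped, with a difference of -0.42 (limma adjusted p = 0.215).

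Blnk encodes the adaptor that links receptor-proximal kinases to their downstream enzymes, and macrophages use it too. At 24 weeks it read 11.53, 11.54, 11.81 and 11.65 in BALB/c and 10.23, 11.54, 11.23 and 10.19 in NeuT replicates 1 to 4. NeuT replicates 1 and 4 were more than 1 log2 unit below the controls, while replicate 2 lay at the level of the lowest controls. The difference of -0.84 was somewhat smaller than those of the 4 called genes and did not pass (SE 0.28, limma adjusted p = 0.149). Its SE was larger than those of Pou2af1, Blk and Ikzf3 (0.23, 0.22 and 0.21) but smaller than that of Spib (0.31). At 12 weeks NeuT mice ran from 10.03 to 11.80 and BALB/c mice from 11.48 to 11.85, with a difference of -0.56 (limma adjusted p = 0.192).

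Btk encodes the kinase whose loss blocks B-cell maturation, and myeloid cells use it as well. At 24 weeks Btk read 10.18, 10.37, 9.73 and 10.43 in BALB/c and 10.51, 10.43, 10.34 and 10.44 in NeuT replicates 1 to 4. The NeuT mice lay at or near the top of the control range, with control replicate 3 low. The log2 difference was 0.25 (95% confidence interval -0.033 to 0.54, limma adjusted p = 0.446), and at 12 weeks it was 0.17 (-0.082 to 0.43, limma adjusted p = 0.436). Btk and Bcl11a were the only 2 of the 9 genes with values above 0 at both ages.

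Cd22 and Ms4a1 encode surface proteins of B cells, an inhibitory lectin receptor and CD20. At 24 weeks Cd22 read 8.89, 8.84, 9.06 and 9.11 in BALB/c and 8.20, 8.79, 8.59 and 8.43 in NeuT replicates 1 to 4. These groups did not overlap either, yet the difference of -0.47 did not pass (SE 0.14, limma adjusted p = 0.102). Ms4a1 ran from 7.98 to 8.77 in BALB/c and from 7.70 to 8.08 in NeuT mice at 24 weeks, with a difference of -0.46 (limma adjusted p = 0.0988). At 12 weeks the values were -0.17 for Cd22 and -0.072 for Ms4a1 (limma adjusted p = 0.472 and 0.767).

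**Figure D2:**
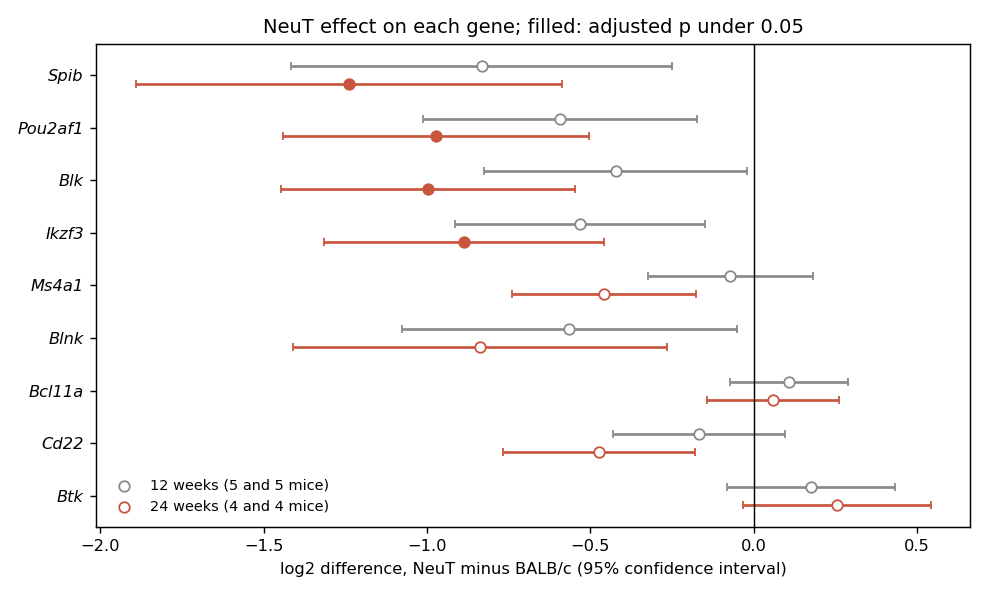
Log2 difference between NeuT and BALB/c mice (horizontal axis) for each gene, with 95% confidence intervals from limma; grey is 12 weeks (5 and 5 mice), red 24 weeks (4 and 4 mice), and filled symbols have an adjusted p under 0.05. The 4 filled symbols are Spib, Pou2af1, Blk and Ikzf3 at 24 weeks, from -0.89 to -1.24, and Bcl11a and Btk lie right of 0 at both ages.

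The 24-week calls rest on few mice. The number of the 9 genes called was 0 without NeuT 24-week replicate 1 or replicate 4, 0 without BALB/c 24-week replicate 1, 3 or 4, and 1 without BALB/c replicate 2, while it was 4 without NeuT replicate 3 and 6 without NeuT replicate 2. Log2 differences of the 4 called genes stayed between -0.73 and -1.51 in these 8 fits. The SD was larger in NeuT than in BALB/c mice for 7 of the 9 genes at 12 weeks and 6 at 24 weeks, against 61.6% and 28.6% of all genes. At 24 weeks it was 0.55 against 0.10 for Ikzf3 and 0.81 against 0.25 for Spib, but 0.16 against 0.33 for Ms4a1, 0.09 against 0.20 for Bcl11a and 0.069 against 0.32 for Btk. Each difference was also given an exact permutation test, two-sided and not adjusted. Like limma, which pools the spread of the groups, it makes no allowance for unequal spread. At 24 weeks Spib, Pou2af1, Blk, Ikzf3 and Cd22 had exact p = 0.0286, the smallest that 4 against 4 mice can give. That value arises only where the groups do not overlap, as for 6.72% of all genes, so it repeats the count of such genes and adds no support. At 12 weeks Ikzf3 had exact p = 0.0238 and Spib and Pou2af1 had exact p = 0.0317, where 0.00794 is the smallest possible. No share of all genes with such values is given for 12 weeks.

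To use all 18 mice, the NeuT effect was averaged over both ages, a comparison chosen after the values were seen. In this average 6 of the 9 genes fell and 0 rose, where 8.56% of all genes were called and 2.09% called lower. Spib fell by 1.04 (SE 0.21, limma adjusted p = 0.00350), Pou2af1 by 0.78 (adjusted p = 0.00247), Blk by 0.71 (adjusted p = 0.00371), Ikzf3 by 0.71 (adjusted p = 0.00262), Blnk by 0.70 (adjusted p = 0.0200) and Cd22 by 0.32 (adjusted p = 0.0384). Without 1 of the 18 arrays the first 4 were called in 18 of 18 fits, Blnk in 16 and Cd22 in 8. Ms4a1 had a value of -0.27 (limma adjusted p = 0.0714), Btk of 0.21 (adjusted p = 0.151) and Bcl11a of 0.08 (adjusted p = 0.436).

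Whether the NeuT effect changed with age was tested as the difference of the effects at 24 and 12 weeks. It was called for 0 of the 9 genes by limma and for 0.0103% of all genes, with 1 of the 9 at an unadjusted p under 0.05 (6.50% of all genes). The values ran from -0.58 for Blk (95% confidence interval -1.18 to 0.029, limma adjusted p = 0.781) to 0.08 for Btk, and 8 of 9 were below 0. The call at 24 weeks and its absence at 12 weeks are therefore not shown to differ. Between 12 and 24 weeks 0 of the 9 genes were called in BALB/c mice (0.579% of all genes) and 0 in NeuT mice (0.0359%), with 2 and 0 at an unadjusted p under 0.05 (15.3% and 12.6% of all genes). The largest values were 0.39 for Cd22 (limma adjusted p = 0.157) and 0.34 for Pou2af1 (adjusted p = 0.473) in BALB/c mice, and -0.29 for Blk (adjusted p = 0.615) and -0.28 for Blnk (adjusted p = 0.729) in NeuT mice. Mean signals of Spib, Pou2af1, Blk, Ikzf3 and Ms4a1 stood in the order BALB/c 24-week, BALB/c 12-week, NeuT 12-week, NeuT 24-week, and no neighbours in that order were called different. For Bcl11a and Btk both NeuT groups stood above both control groups, also without a call. Any processing batch of the mice of 1 age cannot be told apart from age.

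The genes did not vary independently from mouse to mouse. Each mouse's deviation from its group mean was correlated between genes over the 18 arrays, in 36 pairs, with permutation within groups. All 10 pairs among Spib, Pou2af1, Blk, Ikzf3 and Blnk had a Pearson's r between 0.90 and 0.94. Spib and Blk, for example, had r = 0.94 (permutation adjusted p = 0.00036) and Spearman's rho = 0.93 (permutation adjusted p = 0.00117), and r = 0.90 without the 2 mice farthest from the median of Spib. Cd22 followed them less closely, with r = 0.80 with Spib (permutation adjusted p = 0.00036; rho = 0.78, adjusted p = 0.00176; r = 0.70 without the 2 farthest mice). Ms4a1 had r = 0.40 with Spib (permutation adjusted p = 0.0673; rho = 0.46, adjusted p = 0.118; r = 0.29 without the 2 farthest). Bcl11a and Btk had r = -0.05 and -0.19 with Spib (permutation adjusted p = 0.856 and 0.624; rho = -0.18 and -0.20, each with adjusted p = 0.482; r = -0.12 and -0.0099 without the 2 farthest). With Blk and Ikzf3, Ms4a1 had r = 0.52 and 0.48 (permutation adjusted p = 0.0156 and 0.0207, rho = 0.61 and 0.51, adjusted p = 0.0269 and 0.0767). With Pou2af1 and Blnk its r was 0.31 and 0.37 (permutation adjusted p = 0.191 and 0.0764). Between Ms4a1 and Bcl11a r was -0.66 (permutation adjusted p = 0.04998, rho = -0.53, adjusted p = 0.0860). The signals of a mouse share 1 array and 1 normalisation.

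**Figure D3:**
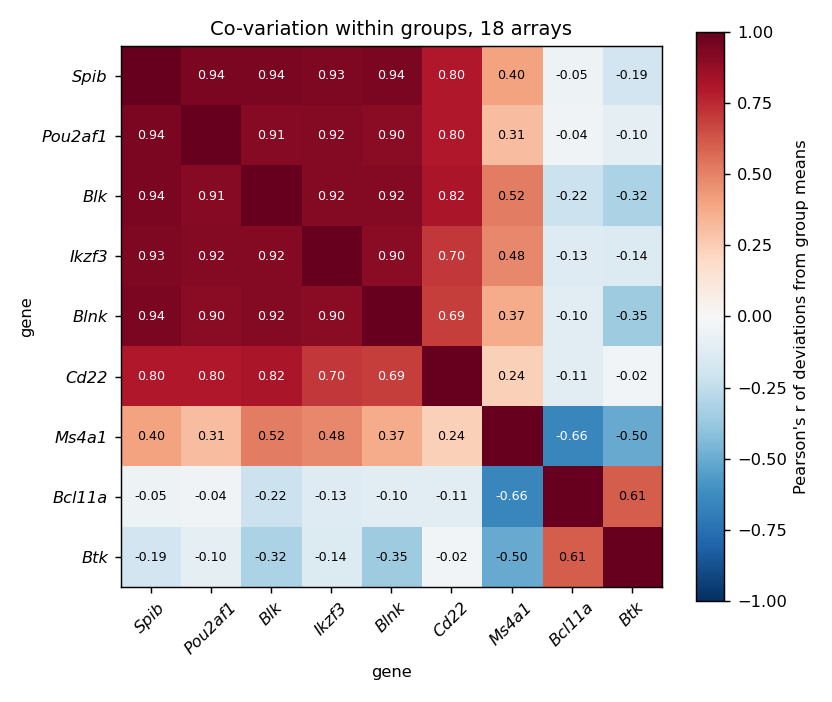
Pearson's r between genes (both axes) of each mouse's deviation from its group mean, over 18 arrays; red is positive and blue negative. The block of Spib, Pou2af1, Blk, Ikzf3 and Blnk lies at 0.90 and above, Cd22 joins it at 0.69 to 0.82, and Bcl11a and Btk stand outside it.

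The same mice were low for the whole block. NeuT 12-week replicate 1 was the lowest of its group for 7 of the 9 genes, and NeuT 24-week replicate 1 was the lowest for 7. NeuT 24-week replicate 4 was the next lowest for Spib, Pou2af1, Blk and Ikzf3 and the lowest for Blnk. For Spib it read 9.54, against 9.02 in replicate 1. Averaged over the 9 genes, each centred on its own mean, these 3 mice stood at -0.66, -0.69 and -0.54, the other 6 NeuT mice between -0.27 and 0.16, and the 9 controls between -0.025 and 0.43. A control was also lowest for the whole block: BALB/c 24-week replicate 1 was the lowest of its group for 6 of the 9 genes, these being Spib, Pou2af1, Blk, Ikzf3, Blnk and Ms4a1. NeuT 24-week replicate 1 is 1 of the 3 arrays with the lowest median correlation to the rest (0.991); NeuT 12-week replicate 1 and NeuT 24-week replicate 4, at 0.993 and 0.992, are not. Without those 3 arrays, the other 2 of which are NeuT 12-week replicate 4 and BALB/c 24-week replicate 3, 0 of the 9 genes were called at 24 weeks and the log2 difference of Spib was -0.86 (limma adjusted p = 0.428). At 12 weeks it was also 0, and in the average of both ages it was 4.

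**Figure D4:**
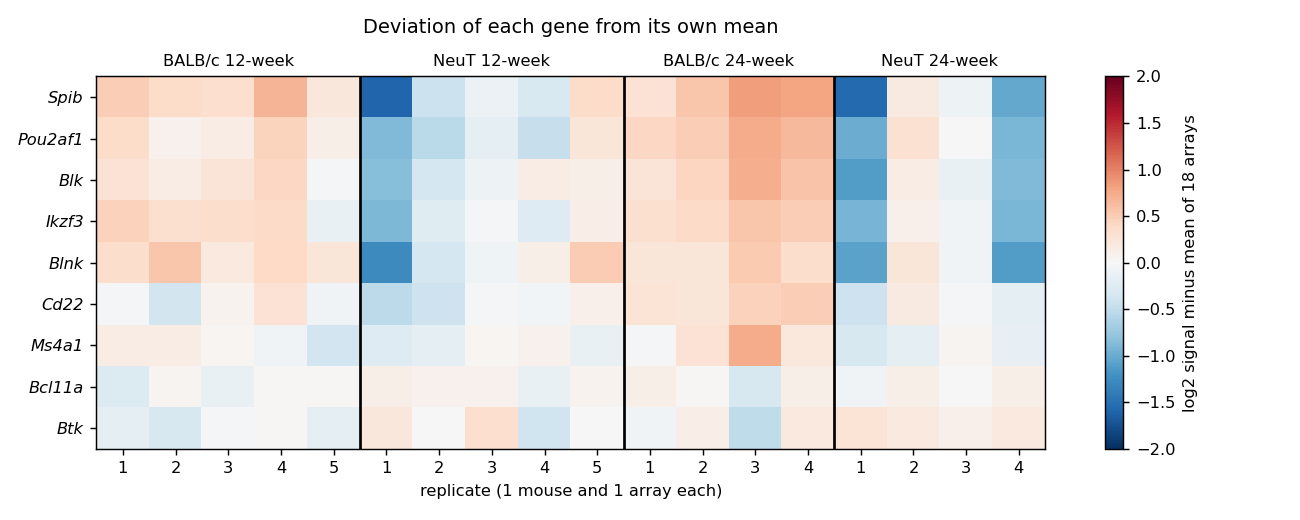
Log2 signal of each gene (rows) minus its mean over the 18 arrays, in each mouse (columns, by group and replicate); red is above and blue below the mean. NeuT 12-week replicate 1 and NeuT 24-week replicates 1 and 4 are blue from Spib to Blnk, and the Bcl11a and Btk rows do not share the pattern.

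Other genes of the pathway were taken from lists made for this comparison, with values given for up to 3 called genes or else the 2 with the smallest p at 24 weeks. Among 25 measured genes of B-cell receptor signalling 1 was called lower at 24 weeks and 0 higher, with a median of -0.011. That is 4% of the list, where 1.40% of all genes were called. The gene that fell was Vav2, a guanine nucleotide exchange factor (-0.74, limma adjusted p = 0.0233). The 95th percentile of the negative controls was passed in no array by 9 of the 25, Vav2 among them. At 12 weeks 1 rose, Vav1, a relative of Vav2 that blood cells in general use (0.38, limma adjusted p = 0.0142). This share of 4% was near the 3.84% called over all genes at 12 weeks. Many of these signalling genes are also used by myeloid cells, as Btk is. Among 14 further B-lineage transcription factor genes 0 were called by limma at either age, with 7 and 8 at an unadjusted p under 0.05 and medians of -0.24 and -0.27. Foxo1 and Irf4, factors of precursor and of activated B cells, had values of -0.63 and -0.95 at 24 weeks (limma adjusted p = 0.0506 and 0.0612). Foxo1 passed the same percentile in 3 arrays and Irf4 in 0, and 3 of the 14 genes passed it in none.

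The earlier programme had values in the same direction. Of 12 early B-precursor genes 0 were called by limma at either age, with 7 and 9 at an unadjusted p under 0.05 at 12 and 24 weeks, and the medians were -0.46 and -0.70. Cd79b, a signalling chain of the receptor, and Pax5, the factor that maintains B-cell identity, had values of -0.87 and -1.01 at 24 weeks (limma adjusted p = 0.0862 and 0.0993). Of 14 mature B-cell genes 2 fell at 24 weeks and 0 were called at 12 weeks, with medians of -0.28 and -0.15. They were H2-Ob, a class II antigen-loading gene (-0.70, limma adjusted p = 0.0411), and Tnfrsf13c, the receptor for the survival factor BAFF (-0.49, adjusted p = 0.0396). Over all genes 1.40% were called at 24 weeks. Tnfrsf13c passed the 95th percentile of the negative controls in 7 arrays. In no array was it passed by 10 of the 14 genes, H2-Ob among them. In the average of both ages, for which 6 of the 9 genes fell, 7 of the 12 precursor genes, 7 of the 14 transcription factor genes, 6 of the 14 mature B-cell genes and 5 of the 25 receptor signalling genes fell, and 2 of the last rose. Over all genes 8.56% were called in this average and 2.09% were called lower. Lower signals were therefore not particular to the 9 genes. Some of these lists share genes, and no test set them against the 9.

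The genes most like the 9 in pattern were sought among 18535 other named genes, by Pearson's r over the 18 arrays with the mean of the 9 centred genes. The 6 closest were Chst3 (r = 0.98), Niban3 (r = 0.98), Cpm (r = 0.98), Bcl7a (r = 0.98), Pax5 (r = 0.98) and Bach2 (r = 0.97), and 55 genes exceeded 0.9. Pax5 and Bach2 encode B-cell transcription factors. Chst3, which encodes a sulfotransferase, and Cpm, which encodes a membrane carboxypeptidase, fell at 24 weeks, with log2 differences of -0.99 and -1.20 (limma adjusted p = 0.0243 and 0.0294). Niban3, Bcl7a and Bach2 had values of -1.06, -0.61 and -0.98 (adjusted p = 0.0576, 0.0613 and 0.0726). These genes were chosen for their likeness over all 18 arrays, group differences included. The correlations, the differences between groups and their p-values are therefore descriptions, not separate support.

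Some markers of other cell types also differed between NeuT and BALB/c mice. Over all genes 1.40% were called at 24 weeks and 3.84% at 12 weeks. Of 15 neutrophil genes 6 rose at 24 weeks and 0 fell, with a median of 0.62, and 5 rose at 12 weeks. The mean log2 signal of this list ran from 11.00 to 11.42 in BALB/c and from 11.45 to 12.20 in NeuT mice at 24 weeks, and from 11.07 to 11.54 and from 11.19 to 12.29 at 12 weeks. The lowest of the 24-week NeuT mice, at 11.45, was replicate 2, the mouse with the highest Spib of its group, and the lowest at 12 weeks was replicate 5, likewise the highest for Spib. The highest neutrophil mean was in replicate 3 at 24 weeks and replicate 4 at 12 weeks, which were not the lowest for Spib. Of 16 T and NK cell genes 3 fell at 24 weeks, Gzma, Cd2 and Cd3e, and 1 rose, Nkg7, which also rose at 12 weeks, with list means of 8.54 to 8.96 in BALB/c and 8.29 to 8.60 in NeuT mice. In no array did 14 of these 16 genes, Gzma, Cd2 and Cd3e among them, pass the 95th percentile of the negative controls. Of 10 monocyte and macrophage genes 1 rose at 24 weeks, Ly6c2, with list means of 8.98 to 9.29 and 9.17 to 9.53, and 4 rose and 1 fell at 12 weeks. Among 15 stromal genes 3 rose at 24 weeks, Igfbp5, Vcam1 and Igfbp4, and 0 were called at 12 weeks, with means of 8.39 to 8.52 in BALB/c and 8.53 to 8.74 in NeuT mice at 24 weeks. The 8 markers of plasmacytoid dendritic cells, which also use Spib and Bcl11a, had 0 genes called by limma at either age, with 1 and 3 at an unadjusted p under 0.05. Their means ran from 9.52 to 9.80 in BALB/c and from 9.08 to 9.60 in NeuT mice at 24 weeks, and Klk1 and Tlr9 had values of -0.53 and -0.56 (limma adjusted p = 0.0642 and 0.151). Of 9 plasma-cell genes 0 were called at 24 weeks, with 3 at an unadjusted p under 0.05, and 1 fell at 12 weeks, Jchain, with means of 9.54 to 9.72 in BALB/c and 9.16 to 9.53 in NeuT mice at 24 weeks. Nkg7, Ly6c2 and Jchain are named as the single genes of their counts. The 95th percentile of the negative controls was passed in no array by 2 of the 15 neutrophil genes and 6 of the 10 monocyte and macrophage genes. The same held for 6 of the 8 plasmacytoid dendritic cell markers and 6 of the 9 plasma-cell genes. The part of these cell types in the values of the 9 genes was not tested. Of 6 antigen genes of the purification, Itgam (CD11b) rose at 24 weeks (0.59, limma adjusted p = 0.0427) and Cd3e fell. At 12 weeks 0 of them were called. Ptprc had values of -0.30 and -0.22 at 12 and 24 weeks (limma adjusted p = 0.0880 and 0.410). How evenly the beads depleted the samples was not tested.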

How the data were processed

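Total RNA, biotin-labelled, was hybridised to 1 array per mouse, 18 in all. The authors deposited log2 signals, made, per the submitters' processing notes, with Transcriptome Analysis Console and RMA. For either, the version was not given in the sources used here, nor was a genome build. Of 29129 probe sets 19572 matched 1 gene symbol in the platform annotation. For the 55 genes with several, the probe set with the highest mean was kept, leaving 19505 genes. The table has no detection calls and no filter was applied. The number of arrays limits the precision.

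limma 3.58.1 in R 4.3.3 fitted 1 mean per group (14 residual and 8.68 prior degrees of freedom), two-sided, and was checked on simulated data. Replicate numbers follow accession order. The 9 genes, the lists and the naming rule (up to 3 called genes per list at 24 weeks by size, otherwise 2 by p; 6 genes by likeness) were chosen with earlier results of these data known. Of 28 receptor signalling genes 25 were measured, of 17 factor genes 14, of 14 precursor genes 12 and of 16 mature B-cell genes 14. Correlations used 100000 permutations. Figures were drawn with matplotlib 3.10.9.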

Additional observations from a re-analysis of the deposited data

Results flagged for a closer look

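In 36 sets of values (9 genes in 4 groups) 2 single mice lay apart from the rest of their group by Dixon's criterion, where chance gives about 1 in 20. Ikzf3 in BALB/c 12-week replicate 5 read 9.20, with the next control at 9.66. Bcl11a in NeuT 12-week replicate 4 read 9.59, with the next mouse of its group at 9.81; this array also has the lowest median correlation with the rest (0.987).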

How the results depend on the processing

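The median log2 difference of the 9 genes moved by less than the spread between replicates (pooled SD 0.26) in all alternatives of all comparisons. At 24 weeks the count of called genes, 4 as reported, was 3 with a second quantile normalisation or with median centring, 4 without dim genes or averaging probe sets, 5 with array weights, 1 after cyclic loess, and 0 with every probe set, with trend and robust moderation, with the fit on only the groups compared, and without the 3 arrays least like the rest; without 1 array it ran from 0 to 6. Over all genes the 24-week count of 274 was 10 with every probe set, 101 after cyclic loess, 114 after further quantile normalisation, 577 with array weights, 1 with only the groups compared and 15 without the 3 arrays, and 8 to 641 without 1 array. At 12 weeks the count of 0 became 2 with array weights (2088 of all genes, against 749) and 1 with only the groups compared, and 0 to 3 without 1 array, the 3 without NeuT replicate 5; over all genes it was 490 with every probe set and 230 to 1363 without 1 array. The average of both ages called 4 to 7 of the 9 genes in every fit run; over all genes 873, against 1670, were called without the 3 arrays. No paired analysis was run, because the labels give mouse numbers but state no pairing of mice between groups.

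Signs changed only among values that passed in no fit. For Bcl11a at 24 weeks the value was -0.0032 with array weights and -0.0025 without the 3 arrays, and -0.041 to 0.10 without 1 array. For the difference of effects Btk was -0.15 with array weights, and without the 3 arrays Btk was -0.21, Spib 0.0017 and Blnk 0.057; without 1 array Btk ran from -0.07 to 0.16 and Bcl11a from -0.15 to 0.0036. For age in BALB/c mice Blnk was 0.012 after further quantile normalisation and 0.0014 after median centring, and without 1 array Blnk ran from -0.068 to 0.042, Bcl11a from -0.0031 to 0.15 and Btk from -0.013 to 0.22. For age in NeuT mice Bcl11a was -0.037 after further quantile normalisation, -0.032 after cyclic loess and -0.033 with array weights; without the 3 arrays Bcl11a was -0.0087, Spib 0.12, Pou2af1 0.14, Blk 0.0033 and Ms4a1 0.038; without 1 array Spib ran from -0.50 to 0.098, Pou2af1 from -0.27 to 0.16, Bcl11a from -0.047 to 0.039 and Cd22 from -0.014 to 0.18. The causes were not tested. The fits without the 3 arrays, the average of both ages and the exact tests were chosen after seeing the data.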
